A study of Mus musculus with 28 samples.

Results

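The expression of Trp53, the mouse gene for the transcription factor p53, and of 9 genes that p53 is known to act on was followed across mouse embryonic stem cells (mESC) and the embryoid bodies (EB) grown from them. The 10 genes (Trp53, Mdm2, Ccng1, Trp53inp1, Bax, Bbc3, Phlda3, Sesn1, Perp and Zmat3) were taken by name from the 37583 genes that each of the 2 deposited tables lists, and each name had a single row. Levels were RPKM, read counts scaled by gene length and library total, so they can be compared between genes. All 10 genes passed the filter on low values in every comparison, with a lowest value of 2.62 RPKM, in Zmat3.

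The study asked how Polycomb repressive complex 2 (PRC2, the methyltransferase that marks silent chromatin and needs its subunit Eed) and Elongin A (EloA, gene Tceb3, a transcription elongation factor that PRC2 methylates, per the study's title) bear on the transcriptome. The 28 libraries of ribosomal-RNA-depleted total RNA came from 2 stem cell lines. In CJ7, wild-type, Eed null, K754M and K754R cells had 2 libraries each as mESC and 2 each as EB, collected on day 5 after withdrawal of the cytokine LIF; K754M and K754R are edited forms of EloA in which 1 lysine is replaced by methionine or arginine. In CCE (named CCE28 in part of the labels), mESC had 3 wild-type (EloA+/+) and 3 EloA null libraries, and EB had 2 wild-type libraries and 2 further pairs. For those pairs the labels contradict each other: the pair titled EloA null has columns named as EloA heterozygous (pair A), and the pair titled EloA+/- has columns named as EloA null (pair B), so neither is given a genotype here. All mESC were grown on mouse embryonic fibroblast feeders, which were removed by plating, with LIF and the inhibitors PD0325901 and CHIR99021. The labels do not say how many clones stand behind a genotype or whether replicates were separate cultures, so the p-values measure the spread between these libraries, which may be technical. The Eed null, K754M and K754R comparisons of a stage share their wild-type libraries.

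p53 is kept low in undisturbed cells by Mdm2, a ubiquitin ligase that marks it for destruction and whose own gene p53 turns on, which closes a feedback loop. When DNA damage or other stress stabilises the protein, it activates genes for cell cycle arrest, repair, antioxidant defence and cell death. The amount of Trp53 mRNA therefore says little about p53 activity, and stem cells are known to hold p53 ready and to have Mdm2 and other targets switched on at baseline.

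Depth in megareads (M reads), estimated from the size of the smallest steps in the RPKM values, was 11.1 to 18.2 M reads in CJ7 mESC, 24.3 to 46.3 M reads in CCE mESC, 28.7 to 39.8 M reads in CJ7 EB and 23.6 to 30.8 M reads in CCE EB. The fewest reads estimated for any of the 10 genes in a library were 322 for Bbc3, a counting error of 5.58%. Of the targeted genes, Eed was at 22.3 and 22.1 RPKM in Eed null mESC against 105 and 119 in wild type, a ratio of means of 0.199, and the ratio in EB was 0.305. Tceb3 was at 8.02, 6.33 and 6.17 RPKM in EloA null mESC against 11.7, 11.2 and 10.7, a ratio of means of 0.61, so RNA of the gene remained in the libraries labelled EloA null and its level alone does not show a null. In CCE EB, pair A had Tceb3 levels of 7.94 and 9.09 RPKM and pair B of 7.70 and 8.64 RPKM, which overlap, below the wild-type 9.89 and 11.4 RPKM. The summed level of 8 pluripotency markers was 1293 to 2044 RPKM in mESC and 16.3 to 774 RPKM in EB. The 8 fibroblast markers summed to 56.4 to 590.5 RPKM in mESC, highest in K754R replicate 2, and to 3.31 to 30.2 RPKM in EB.

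The p53 protein binds DNA as a tetramer through a pair of 10-base half-sites, which may be set 0 to 13 bases apart. RefSeq promoter windows (GRCm38.p6; 250 bases before to 50 after a start, 300 in all) existed for 7 of the 10 genes. An exact match to the p53 half-site consensus, which reads the same on both strands, was in 5 of the 10 windows of these 7 genes (Bbc3 has 3 windows and Sesn1 has 2), and in 8.36% of all 32841 windows. The 4 windows below show the range from close to poor matches, in Ccng1 and Bax on one hand and in Mdm2 and Phlda3 on the other; they run 5′ to 3′ on the gene's strand, and capitals mark the pair of half-sites with the fewest mismatches to the consensus.
Ccng1: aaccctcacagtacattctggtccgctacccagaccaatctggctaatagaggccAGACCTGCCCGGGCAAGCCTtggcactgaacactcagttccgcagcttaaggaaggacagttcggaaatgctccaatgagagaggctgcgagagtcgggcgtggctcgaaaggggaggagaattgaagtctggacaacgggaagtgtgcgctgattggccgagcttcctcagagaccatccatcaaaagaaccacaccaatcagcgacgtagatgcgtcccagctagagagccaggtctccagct
Bax: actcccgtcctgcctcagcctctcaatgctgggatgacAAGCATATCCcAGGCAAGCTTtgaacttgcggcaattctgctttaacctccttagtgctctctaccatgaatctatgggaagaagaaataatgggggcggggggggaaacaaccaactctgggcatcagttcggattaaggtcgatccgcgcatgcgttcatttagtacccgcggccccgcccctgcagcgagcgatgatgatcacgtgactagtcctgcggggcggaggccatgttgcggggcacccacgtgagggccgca
Mdm2: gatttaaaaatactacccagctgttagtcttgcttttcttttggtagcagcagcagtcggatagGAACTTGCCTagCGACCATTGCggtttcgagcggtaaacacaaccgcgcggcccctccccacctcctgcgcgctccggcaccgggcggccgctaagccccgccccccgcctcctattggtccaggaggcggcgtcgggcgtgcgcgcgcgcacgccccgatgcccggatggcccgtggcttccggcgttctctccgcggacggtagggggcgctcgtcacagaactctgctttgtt
Phlda3: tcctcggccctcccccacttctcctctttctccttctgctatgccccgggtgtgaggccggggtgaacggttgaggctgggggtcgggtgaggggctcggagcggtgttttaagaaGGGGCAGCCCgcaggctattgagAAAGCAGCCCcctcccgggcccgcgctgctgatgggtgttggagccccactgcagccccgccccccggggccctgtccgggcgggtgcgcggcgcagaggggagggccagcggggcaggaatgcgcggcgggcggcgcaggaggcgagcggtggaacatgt
The Ccng1 window lies at chr11:40755237-40755536 on the minus strand and its pair, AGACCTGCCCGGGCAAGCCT, has 1 mismatch and starts 195 bases before the start site. The Bax window, at chr7:45466849-45467148 on the minus strand, holds AAGCATATCCcAGGCAAGCTT, also with 1 mismatch, with a spacer of 1 base, 212 bases before the start. A pair this close or closer was in 1.09% of all windows. The Mdm2 window (chr10:117710709-117711008, minus strand) and the Phlda3 window (chr1:135765835-135766134, plus strand) had no pair with fewer than 4 mismatches, a match that 89.3% of windows reach. A Bbc3 window held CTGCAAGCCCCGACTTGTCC, with 3 mismatches, which 45.1% of windows reach. The Mdm2 window did hold an exact single half-site, and the Phlda3 window held none. These are matches of letters in 1 window per start site, and no binding was measured. A window ends 50 bases after its start, so sites further into a gene could not be seen.

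In mESC, Bax had the highest median over 14 libraries, 166 RPKM, and Zmat3 the lowest, 3.73 RPKM; in EB, Ccng1 was highest at 134.6 RPKM and Zmat3 again lowest at 4.03 RPKM. Ccng1 and Bax changed places with each other, and Bax was above Ccng1 in only 9 of 14 mESC libraries, so these neighbours were not separated. Phlda3 and Trp53inp1 were likewise mixed in mESC, with Phlda3 above in 9 of 14 libraries, and Trp53 and Perp, with Trp53 above in 7 of 14. Mdm2 stood above Trp53 in all 14 libraries of each stage.

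**Figure D1:**
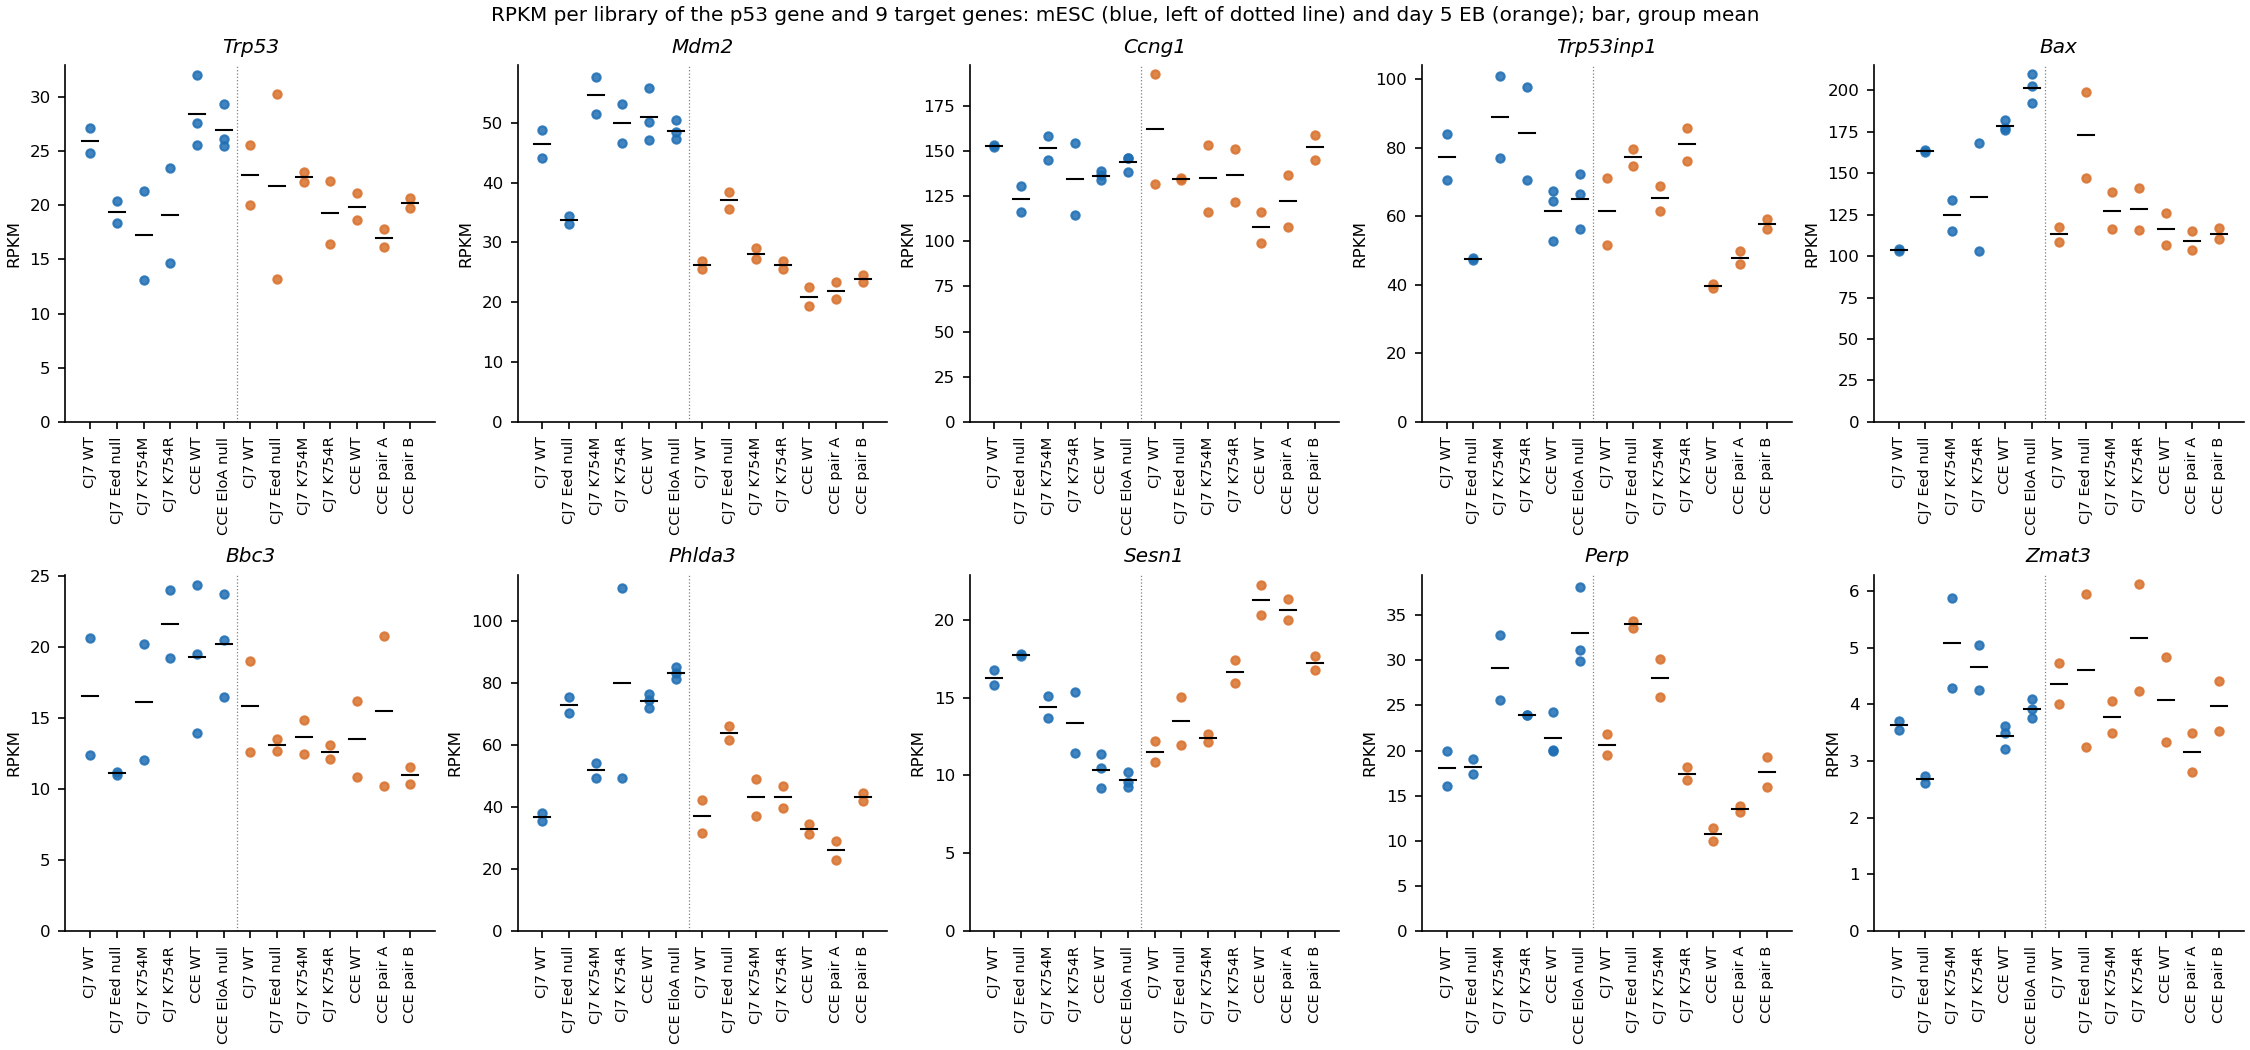
Level of each of the 10 genes (vertical axes, RPKM, from 0) in all 28 libraries; each point is a library, blue for mESC and orange for day 5 EB, and each bar is the mean of its group. Mdm2 is above 33 RPKM in every mESC library and below 39 RPKM in every EB library, with the Eed null EB highest among EB.

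Trp53 itself did not pass the test in any comparison. It ranged from 13.1 to 32.0 RPKM in mESC and from 13.2 to 30.3 RPKM in EB. Both ends of the EB range came from the Eed null pair, at 13.2 and 30.3 RPKM, so this group spans all other EB libraries. The K754M mESC pair was at 13.1 and 21.3 RPKM against 24.8 and 27.1 in wild type, which do not overlap, and the log2 difference was -0.62 ± 0.29 (SE; limma adjusted p = 0.559). Without Eed null EB replicate 2, the log2 difference of Eed null from wild-type EB went from -0.17 to -0.75, with adjusted p = 0.0492, so that value rests on 1 library.

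Among the genes followed here, Mdm2, the negative regulator of p53, had the clearest difference between the stages. In wild-type CJ7 it was at 48.7 and 44.1 RPKM in mESC and at 25.6 and 26.8 RPKM in EB. In K754M it was at 57.7 and 51.5 RPKM in mESC and 29.1 and 27.2 in EB, and in K754R at 46.7 and 53.1 in mESC and 26.9 and 25.5 in EB. Wild-type CCE was at 47.2, 50.2 and 55.8 RPKM in mESC and 19.3 and 22.6 in EB. In these 4 genotypes the EB mean was 0.41 to 0.565 times the mESC mean, with no overlap. The share of all genes that differ as much between the stages was not computed. Whether this difference is particular to Mdm2 is therefore not known.

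Eed null cells were the exception. Their Mdm2 level was 33.1 and 34.5 RPKM in mESC, the lowest of all mESC libraries, and 35.7 and 38.4 RPKM in EB, the highest of all EB libraries, an EB mean 1.096 times the mESC mean. The stages come from separate tables that may have been normalised separately, so these levels are set side by side without a test. For the counts of genotypes without overlap that follow, the share over all genes was not computed either. Of the other targets, Phlda3 (a competitor of Akt for membrane lipids) was also lower in EB without overlap in 4 of 5 genotypes, with ratios from 0.444 to 0.878. Sesn1, a stress-induced inhibitor of mTORC1, overlapped between stages in 0 of 5 genotypes but was lower in EB in 3 and higher in 2, from 0.708 times in wild-type CJ7 to 2.06 times in wild-type CCE.

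**Figure D2:**
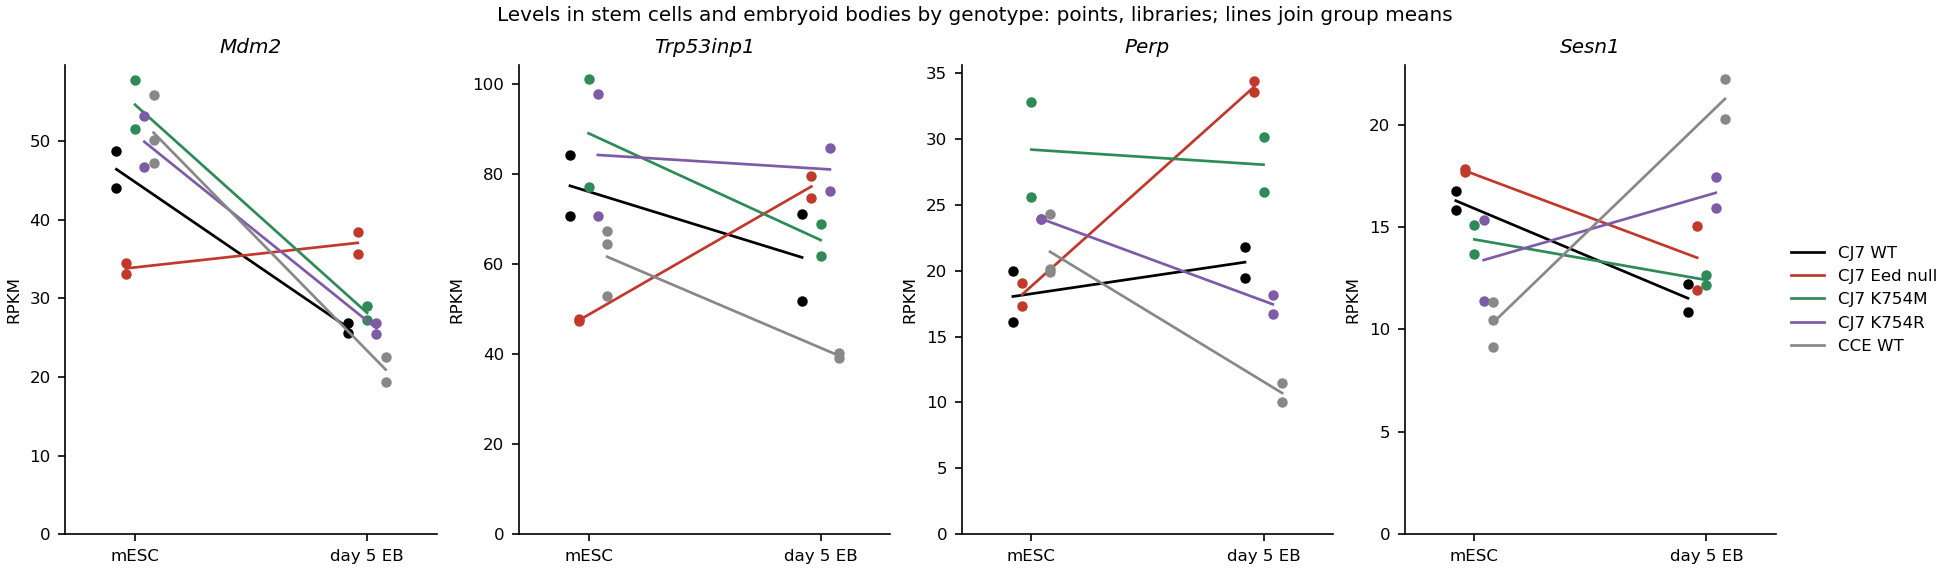
Levels (RPKM, from 0) of Mdm2, Trp53inp1, Perp and Sesn1 in mESC and day 5 EB of the 5 genotypes with a clear label at both stages; points are libraries and lines join group means. Mdm2 lines fall in 4 genotypes and not in Eed null, and the Sesn1 lines of CCE and CJ7 wild type cross.

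Loss of Eed was accompanied by higher levels of 4 of the 10 genes in EB: Perp, Phlda3, Bax and Mdm2 rose, by log2 differences of 0.49 to 0.80, and none fell. In the same comparison 5867 of 19300 genes were called, 30.4% in either direction, 19.2% upward and 11.2% downward (limma, Benjamini-Hochberg adjusted p under 0.05 on log2 of RPKM + 0.5). The median log2 difference was 0.28 over the 10 genes and 0.05 over all genes tested. The genes that rose include the death effector Bax, a Bcl-2 family protein that permeabilises mitochondria, while Ccng1, Bbc3, Sesn1, Zmat3 and Trp53 overlapped with wild type.

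Perp, a tetraspan membrane protein of desmosomes that also takes part in p53-dependent death, was at 33.6 and 34.4 RPKM in Eed null EB and at 21.8 and 19.5 RPKM in wild type. The groups lie well apart, and the log2 difference was 0.71 ± 0.12 (SE, n = 2 per group; limma adjusted p = 0.00468). This call held without each of the 4 libraries, with adjusted p from 0.0141 to 0.0313. Mdm2, at 35.7 and 38.4 RPKM against 25.6 and 26.8, rose by 0.49 ± 0.10 (limma adjusted p = 0.0112). Both Eed null libraries were above both wild-type ones by more than the spread within either pair. Without wild-type replicate 1 the log2 difference was 0.46 and the adjusted p 0.052.

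Phlda3 was at 66.2 and 61.8 RPKM in Eed null EB and at 42.4 and 31.7 RPKM in wild type, a log2 difference of 0.80 ± 0.19 (limma adjusted p = 0.0167). The 2 wild-type libraries differ from each other more than the Eed null ones do. The call was lost without Eed null replicate 1 (0.75, adjusted p = 0.0596) and without wild-type replicate 2 (0.59, adjusted p = 0.0908). Bax was at 199 and 147 RPKM against 118 and 109, a log2 difference of 0.60 ± 0.18 (limma adjusted p = 0.0437). Here the Eed null libraries spread most, and the call was lost without Eed null replicate 1 (0.38, adjusted p = 0.15), without wild-type replicate 1 (0.65, adjusted p = 0.0982) and without wild-type replicate 2 (0.54, adjusted p = 0.167). It was also lost with no filter (adjusted p = 0.0746) and with median ratio scaling (adjusted p = 0.0669). Some reads may be shared with Gm45808, an overlapping gene on the same strand that covers 12.2% of the exon bases of Bax.

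Trp53inp1, a stress-induced autophagy and death protein, was at 79.6 and 74.7 RPKM against 71.1 and 51.8, above wild type in both libraries but not called (0.34 ± 0.16, limma adjusted p = 0.159). Without wild-type replicate 1 it was called, at 0.57 (adjusted p = 0.0393). Bbc3, which encodes the death-inducing BH3-only protein PUMA, was at 12.7 and 13.5 RPKM against 12.6 and 19.0. Ccng1, the cyclin G1 gene, was at 135 and 134 RPKM against 193 and 132, and the 95% interval of its log2 difference ran from -0.75 to 0.27. Zmat3, an RNA-binding tumour suppressor, was at 3.25 and 5.95 RPKM against 4.0 and 4.73. In these 3 genes the spread inside a pair was as wide as any difference between the groups.

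The cell types of these EB differed as well. All 8 pluripotency markers rose, summing to 715 to 774 RPKM in Eed null EB against 103 to 124 in wild type, and all 6 mesoderm markers fell, from 152 to 188 RPKM down to 41.8 to 54.4. The 7 visceral endoderm markers summed to 299 to 324 RPKM against 53.01 to 55.5, with 4 called higher and 2 lower. Of 10 epithelial and desmosomal markers, which bear on Perp, 2 rose and none fell, and they summed to 1567 to 2260 RPKM against 1355 to 1549. The fibroblast markers summed to 5.996 to 6.33 RPKM against 3.31 to 3.75, and 3 of 7 tested rose. The part of these shifts in the rise of the 4 genes was not tested, and in bulk RNA a change in the share of a cell type and a change in RNA per cell cannot be told apart.

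In Eed null mESC none of the 10 genes was called by limma, against 8.59% of 21012 genes. In 9 of the 10 the Eed null and wild-type libraries did not overlap, as in 64.7% of all genes. Bax was at 164 and 163 RPKM against 103 and 104 in wild type, and Phlda3 at 70.4 and 75.5 against 35.6 and 38.2, log2 differences of 0.66 ± 0.23 (limma adjusted p = 0.127) and 0.97 ± 0.34 (adjusted p = 0.128). Trp53inp1 was at 47.3 and 47.8 RPKM against 84.1 and 70.6 (-0.69 ± 0.21, adjusted p = 0.0901), and Mdm2 at 33.1 and 34.5 against 48.7 and 44.1 (-0.45 ± 0.13, adjusted p = 0.0792). These are the 4 genes with an unadjusted p under 0.05, which 26.1% of all genes reached, 2 of them above wild type and 2 below. Perp, with the lowest adjusted p in EB, was at 17.3 and 19.1 RPKM against 16.1 and 19.96. Cell type markers differed here too. Of 10 epithelial and desmosomal markers 3 were higher and 1 lower, summing to 429 to 443 RPKM against 221 to 270. The 7 visceral endoderm markers summed to 4.40 to 4.81 RPKM against 1.49 to 1.89, with none called. Of 8 pluripotency markers 1 rose and 1 fell, of 5 tested mesoderm markers 1 rose, and of 8 fibroblast markers 1 fell. The part of these markers was not tested.

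**Figure D3:**
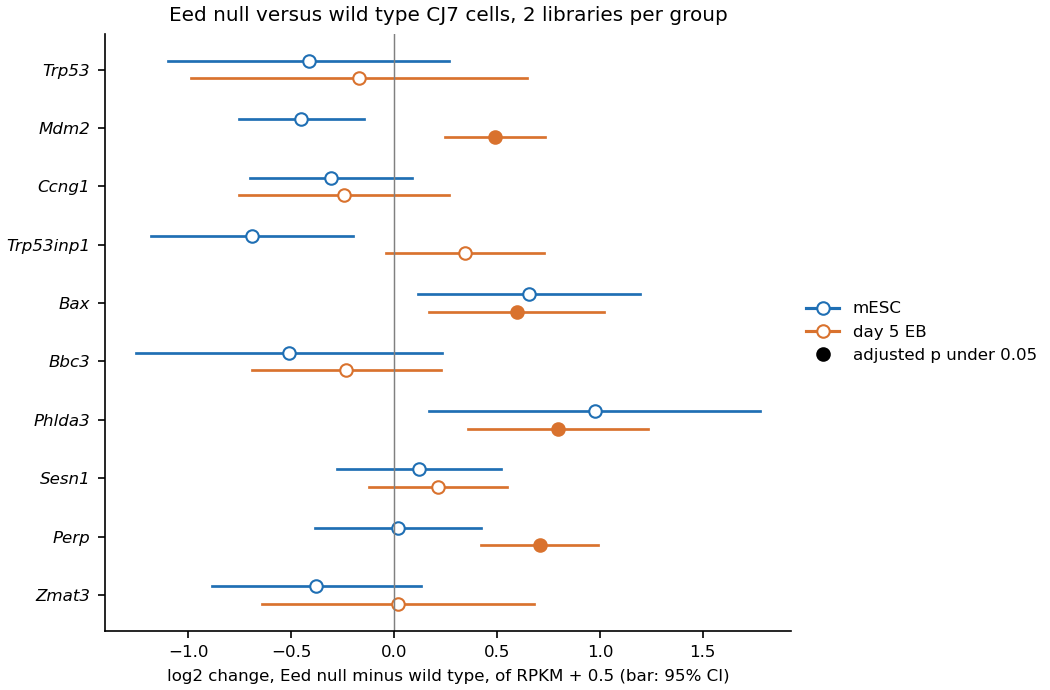
Log2 difference of RPKM + 0.5 between Eed null and wild-type CJ7 (horizontal axis) for the 10 genes, in mESC (blue) and day 5 EB (orange), 2 libraries per group; bars are 95% confidence intervals and filled points passed the test. Bax and Phlda3 lie to the right at both stages, while Mdm2 and Trp53inp1 lie left in mESC and right in EB.

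The difference between the stages was tested directly, as the Eed null effect in EB minus that in mESC, over all 16 CJ7 libraries. It was called for Mdm2, Trp53inp1 and Perp, all upward, against 14.7% of 22818 genes in either direction, 8.09% upward and 6.58% downward. For Mdm2 it was 0.94 ± 0.16 (log2, limma adjusted p = 0.00231) and held without each of the 8 libraries, with adjusted p from 0.00442 to 0.0176. For Trp53inp1 it was 1.03 ± 0.28 (adjusted p = 0.0289), called in 2 of the 8 fits that leave out a library; the adjusted p was 0.0709 without Eed null EB replicate 1, 0.0611 without Eed null EB replicate 2, 0.109 without wild-type EB replicate 2, 0.0903 and 0.0847 without Eed null mESC replicate 1 or 2, and 0.0993 without wild-type mESC replicate 1. For Perp it was 0.69 ± 0.21 (adjusted p = 0.0477) and was called in 1 of those 8 fits, the one without wild-type mESC replicate 1; in the other 7 the adjusted p was 0.0726 to 0.165. It also missed the threshold with a pseudocount of 0.1 (adjusted p = 0.0515), no filter (0.0561) and median ratio scaling (0.0639). Bax and Phlda3 gave -0.06 ± 0.31 and -0.18 ± 0.42, with 95% intervals from -0.74 to 0.61 and from -1.09 to 0.73. Cell type markers moved in the same test, 7 of 8 pluripotency markers upward and 5 of 6 mesoderm markers downward. Of 7 visceral endoderm markers 4 went upward and 2 downward, and of 8 fibroblast markers 3 went upward. Of 10 epithelial and desmosomal markers 1 went upward and 2 downward. The part of these markers in the differences was not tested.

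In mESC of the EloA lysine mutants no gene of the 10 was called, with 2 libraries per group. The mutant libraries did not overlap with wild type in 7 of the 10 genes in K754M and 5 in K754R, beside 34.7% and 40.3% of all genes. With limma, 0 of 10 were called in K754M, where 0 of 21012 genes were called and 2103 had an unadjusted p under 0.05, and 0 of 10 in K754R, against 0.162% of all genes and with 2 of the 10 and 14.3% of all genes at an unadjusted p under 0.05. Perp was at 25.6 and 32.8 RPKM in K754M and 24.0 in both K754R libraries, against 16.1 and 19.96 in wild type, without overlap. The log2 differences were 0.68 ± 0.17 (limma adjusted p = 0.233) and 0.41 ± 0.17 (adjusted p = 0.349). Their 95% intervals ran from 0.27 to 1.08 and from 0.003 to 0.81. Of the 10 epithelial and desmosomal markers, 0 had a log2 difference above 0 in K754M (median -0.25) or K754R (median -0.70), and none was called. The fibroblast markers summed to 127.9 to 297.6 RPKM in K754M against 127.5 to 167.5 in wild type. The part of either list in the Perp values was not tested. Phlda3 was at 49.2 and 111 RPKM in K754R against 35.6 and 38.2 (0.99 ± 0.34, adjusted p = 0.259). The higher of these is replicate 2, whose 8 fibroblast markers summed to 590.5 RPKM against 162 in replicate 1; their part in that value was not tested. K754R and K754M mESC differed in 0 of the 10 genes, against 0.00952% of all genes, and 0 of the 10 had an unadjusted p under 0.05, beside 10.1% of all genes.

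In EB the mutants differed from each other at Perp. It was at 30.1 and 26.0 RPKM in K754M EB, 18.2 and 16.7 in K754R EB and 21.8 and 19.5 in wild type, so the wild-type libraries lie between the mutants. K754R was lower than K754M by a log2 difference of -0.67 ± 0.12 (limma adjusted p = 0.0327), against 3.62% of 19300 genes called in either direction, 1.72% upward and 1.9% downward. The call was lost without each of the 4 libraries: the adjusted p was 0.242 and 0.126 without K754M replicate 1 or 2, and 0.143 and 0.231 without K754R replicate 1 or 2. With no filter it was 0.0504. Against wild type, K754M was at 0.43 ± 0.12 (adjusted p = 0.171) and K754R at -0.24 ± 0.12 (adjusted p = 0.262). Cell type markers differed too. In K754R against K754M EB, 5 of 8 pluripotency markers were lower (sums of 16.3 to 20.96 against 147 to 153 RPKM), 3 of 6 mesoderm markers lower (80.03 to 99.9 against 160 to 170 RPKM), 1 of 7 visceral endoderm markers lower and 3 of 7 fibroblast markers higher. Of 10 epithelial and desmosomal markers, Krt19 was lower and Epcam higher, by log2 differences of -1.34 and 0.88. The part of these markers in the Perp difference was not tested.

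No gene of the 10 was called by limma in K754M EB against wild type (0.565% of genes called) or in K754R EB against wild type (9.68%), with 1 and 2 of the 10 at an unadjusted p under 0.05, beside 15.2% and 27.3% of all genes. The 2 in K754R EB were Sesn1, at 17.4 and 15.9 RPKM against 10.8 and 12.2 (0.52 ± 0.14, limma adjusted p = 0.0654), and Trp53inp1, at 85.7 and 76.3 against 71.1 and 51.8 (0.41 ± 0.16, adjusted p = 0.159). In both the mutant libraries were above the wild-type ones. The effects in EB minus those in mESC were called for 0 of the 10 genes in K754M (0.193% of genes) and in K754R (2.03%), with 0 and 2 of the 10 at an unadjusted p under 0.05, beside 9.0% and 14.9% of all genes. Without K754R mESC replicate 1, the K754R difference between stages was -1.34 for Phlda3 and 1.01 for Sesn1 (log2), in place of -0.76 and 0.80.

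Perp also rose in EloA null CCE mESC, and in the fit without replicate pairs it was the 1 gene of the 10 called. It was at 38.1, 31.2 and 29.9 RPKM against 24.3, 19.9 and 20.1 in wild type, with no overlap, and the log2 difference was 0.61 ± 0.12 (SE, n = 3 per group; limma adjusted p = 0.0429). In this comparison 3.35% of 18460 genes were called, 2.12% upward and 1.23% downward. Replicate 1 was the highest of its group on both sides. The adjusted p was 0.0347 without wild-type replicate 1, and the call was lost in the other 5 fits that leave out a library: 0.0766, 0.102 and 0.09 without EloA null replicate 1, 2 or 3, and 0.166 and 0.174 without wild-type replicate 2 or 3. It was also lost with no filter (0.0806) and in 1 fit of all 14 mESC libraries (0.0544). All of these fits ignored the replicate pairs, and no fit left out a library with the pairs kept.

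With the replicate number as a block, which pairs these samples, 3 of the 10 genes rose in EloA null mESC, beside 12.4% of all genes called in that fit, 6.67% upward. Perp then had a limma adjusted p of 0.00303. Phlda3, at 83.4, 81.2 and 85.3 RPKM against 74.5, 71.9 and 76.5, had one of 0.0257, and Bax, at 192, 210 and 202 against 177, 176 and 182, one of 0.0428. The differences of these last 2 genes were small, 0.16 and 0.18 on the log2 scale, with no overlap between the groups, and without the block their adjusted p was 0.117 and 0.125. Bbc3 was at 16.5, 20.5 and 23.7 RPKM in EloA null replicates 1, 2 and 3 and at 13.96, 19.5 and 24.4 in the wild-type replicates of the same numbers, so same-numbered libraries lay close together. Fibroblast markers summed to between 117 and 234 RPKM in the EloA null libraries and between 56.4 and 163 RPKM in their controls. None of the 8 was called, but all 8 had a log2 difference above 0, with a median of 0.80. Of the 10 epithelial and desmosomal markers, 2 were lower in EloA null, opposite to Perp: Krt8 by -0.48 and Krt18 by -0.98 on the log2 scale, with none higher. The part of either list in these differences was not tested.

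**Figure D4:**
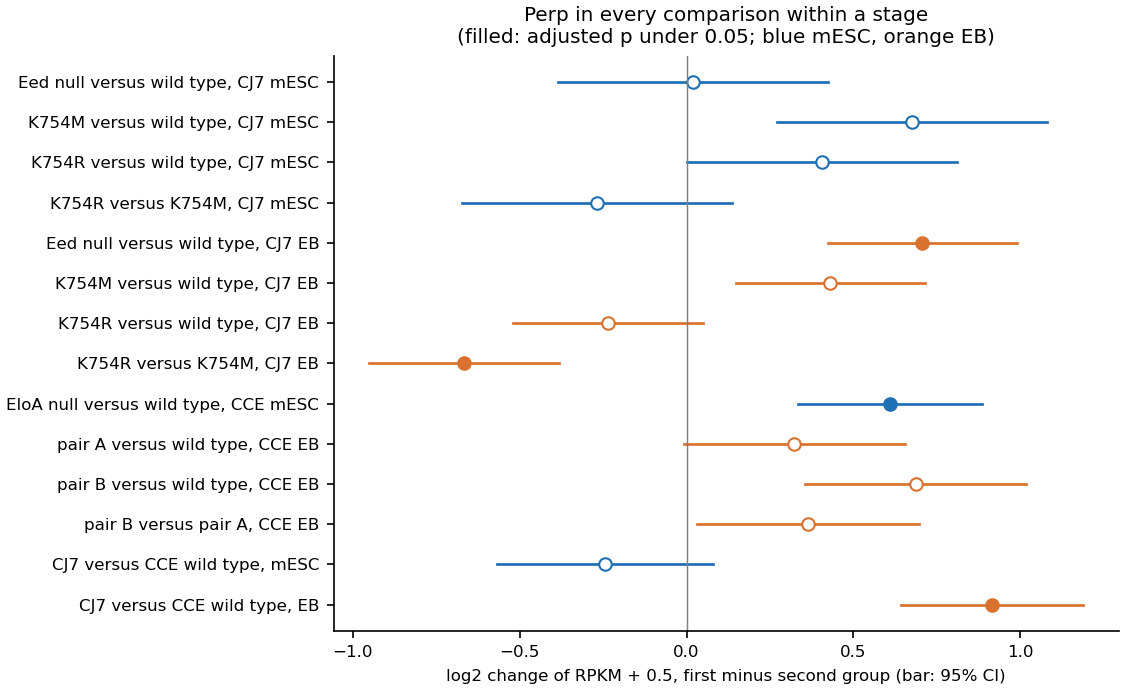
Log2 difference of Perp (RPKM + 0.5, horizontal axis; first group minus second) in the 14 comparisons within a stage, mESC in blue and EB in orange; bars are 95% confidence intervals and filled points have an adjusted p under 0.05. Filled points stand to the right of 0 for Eed null EB, EloA null mESC and CJ7 against CCE EB, and to the left for K754R against K754M EB.

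Among CCE EB, none of the 10 genes was called by limma in pair A against wild type (0 of 17735 genes called, 1166 at an unadjusted p under 0.05), in pair B against wild type (0.135% called) or in pair B against pair A (0.44%). At an unadjusted p under 0.05 there were 2, 5 and 4 of the 10, beside 6.57%, 15.5% and 18.7% of all genes. In pair B, Perp was at 15.9 and 19.3 RPKM and Trp53inp1 at 56.3 and 59.2, against 9.996 and 11.4 and against 40.1 and 39.1 in wild type. The log2 differences were 0.69 ± 0.14 (limma adjusted p = 0.109) and 0.54 ± 0.09 (adjusted p = 0.0838). Pair A lay between wild type and pair B for both genes, with Perp at 13.2 and 13.9 RPKM and Trp53inp1 at 49.8 and 46.0. Phlda3 was at 44.6 and 41.9 RPKM in pair B and 29.2 and 22.9 in pair A, on either side of the wild-type 34.6 and 31.4, and pair B against pair A gave 0.73 ± 0.14 (adjusted p = 0.0852). With the replicate number as a block, Ccng1, Perp and Trp53inp1 were called in pair B against wild type, beside 703 of all genes. Phlda3 was then called in pair B against pair A, beside 1462 of all genes. Whether the numbers are pairs in CCE EB cannot be settled.

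The 2 wild-type lines differed at several of the genes. In mESC, CJ7 was lower than CCE in Bax (103 and 104 against 177, 176 and 182 RPKM) and Phlda3 (35.6 and 38.2 against 74.5, 71.9 and 76.5), by log2 differences of -0.78 ± 0.16 (limma adjusted p = 0.00512) and -1.001 ± 0.24 (adjusted p = 0.0123). It was higher in Sesn1, at 15.8 and 16.8 against 9.16, 10.5 and 11.4 (0.64 ± 0.13, adjusted p = 0.00477). Of 21780 genes 22.7% were called, 12.5% upward and 10.2% downward. Among cell type markers, 1 of 8 pluripotency markers was higher in CJ7 and 4 lower. Of 10 epithelial and desmosomal markers 3 were higher and 1 lower, and of 5 tested visceral endoderm markers 1 was higher. The part of these markers was not tested. The Phlda3 call was lost without CJ7 replicate 1 (-0.95, adjusted p = 0.0808); the other 2 held without each of the 5 libraries. Between these 2 groups, line and the lower depth of the CJ7 mESC libraries cannot be told apart. Wild-type CJ7 had the lowest mESC group mean for Bax and Phlda3. The other CJ7 mESC had Bax means of 163 (Eed null), 125 (K754M) and 135 RPKM (K754R), and Phlda3 means of 72.9, 51.9 and 79.9 RPKM. Their Sesn1 means were 17.8, 14.4 and 13.4 RPKM. The same wild-type libraries are the baseline of the Eed null, K754M and K754R comparisons.

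In EB the lines differed in Perp, Trp53inp1 and Sesn1, where 6.82% of 20039 genes were called, 4.17% upward and 2.64% downward. Perp was higher in CJ7, at 21.8 and 19.5 RPKM against 9.996 and 11.4 (0.92 ± 0.12, limma adjusted p = 0.00219), and Trp53inp1 at 71.1 and 51.8 against 40.1 and 39.1 (0.61 ± 0.14, adjusted p = 0.0266). The Trp53inp1 call was lost without CCE replicate 1 or 2 (adjusted p = 0.108 and 0.114) and without CJ7 replicate 1 (0.136). Sesn1, higher in CJ7 as mESC, was lower as EB, at 10.8 and 12.2 RPKM against 22.3 and 20.3 (-0.86 ± 0.12, adjusted p = 0.00297). In both stages the Sesn1 libraries of the lines did not overlap. Cell type markers also differed between the lines in EB. Of 10 epithelial and desmosomal markers 4 were higher in CJ7 and none lower, and of 8 pluripotency markers 3 were higher. Of 8 fibroblast markers 2 were lower, of 6 mesoderm markers 1 was higher and 1 lower, and of 7 visceral endoderm markers 1 was higher. The part of these markers in the differences was not tested.

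The wider p53 pathway was read from 6 lists of other genes, 66 of which are in the tables. In Eed null EB, 23 of 63 tested were higher and 6 lower, beside the 19.2% and 11.2% of all genes, with a median log2 difference of 0.25 against 0.05 for all genes. Of 12 other targets in cell cycle and growth, 7 rose and none fell. These include Plk3, a stress kinase, at 4.07 and 6.96 RPKM against 0.647 and 0.646 (2.35 ± 0.27, limma adjusted p = 0.000779), and Cdkn1a, the cell cycle inhibitor p21, at 9.07 and 13.5 against 6.83 and 6.97 (0.65 ± 0.19, adjusted p = 0.0385), which is named here after its values were seen. Of 11 tested death targets 5 rose and none fell, led by Pmaip1, the BH3-only protein NOXA, at 58.1 and 69.5 RPKM against 6.95 and 6.60 (3.14 ± 0.14, adjusted p = 2.61e-05). Dram1, an autophagy gene, was at 6.84 and 7.20 RPKM against 0.313 and 0.482 (3.07 ± 0.21, adjusted p = 0.0001). The calls of Pmaip1, Dram1 and Plk3 held without each of the 4 libraries.

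Other groups of the pathway were mixed. Of 12 Bcl-2 family genes 6 rose and none fell, with members of both kinds: Bid and Hrk promote death (log2 differences 1.09 and 1.44), and Mcl1 and Bcl2l1 protect from it (0.73 and 0.67). Of 14 tested regulators of p53, 3 rose (Cdkn2a, Usp7 and Aurka) and 2 fell (Ppm1d and Rfwd2). Among the 5 DNA damage kinases Chek2 rose and Atr and Chek1 fell, and of 9 repair and metabolism targets 1 rose and 2 fell. When each of the 4 libraries was left out in turn, 14 to 25 pathway genes were called in place of 29, 12 to 20 of them upward and 2 to 5 downward. The count was 19 without Eed null replicate 2 and 14 without wild-type replicate 2.

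**Figure D5:**
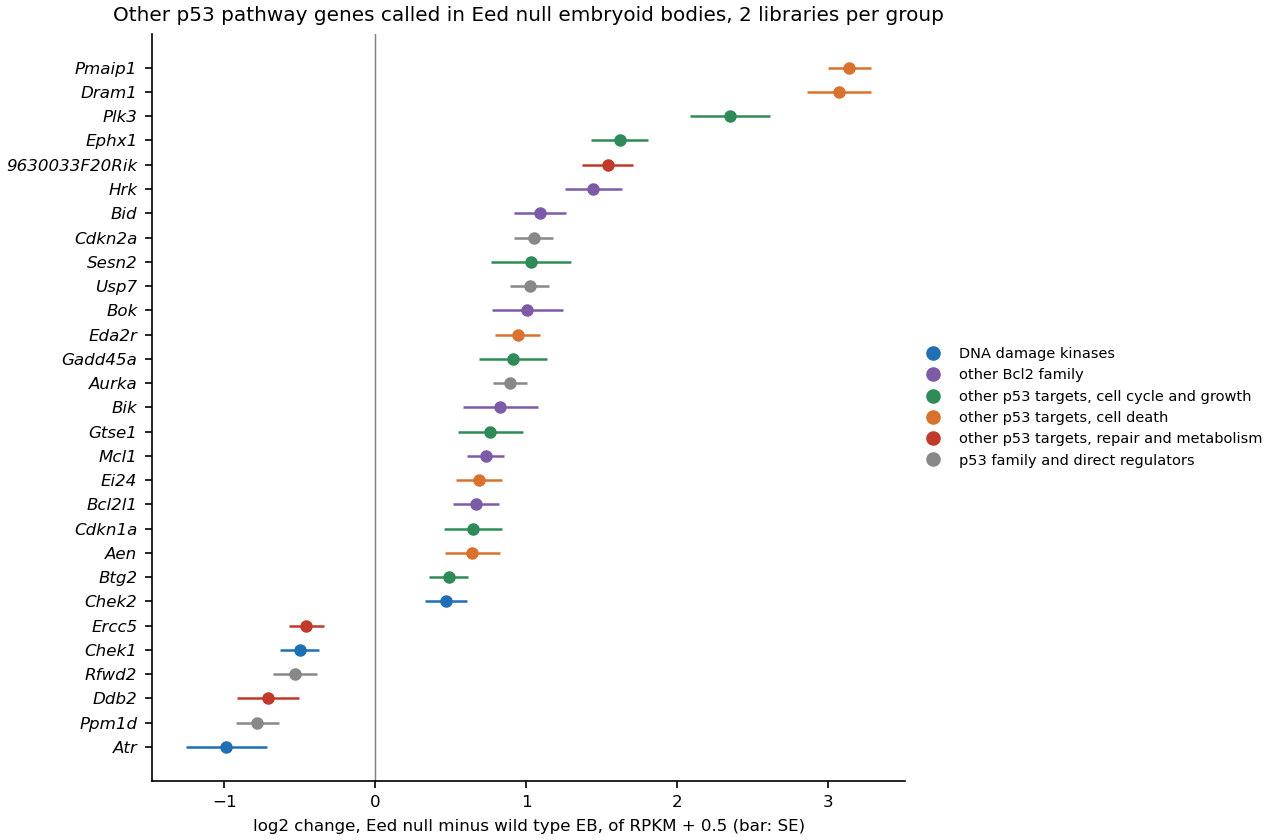
Log2 difference of RPKM + 0.5 between Eed null and wild-type EB (horizontal axis) for the 29 other pathway genes that passed the test, sorted by size and coloured by list; bars are SE, 2 libraries per group. Of these, 23 are higher in Eed null EB, with Pmaip1 and Dram1 above 3, and 6 are lower.

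In the other comparisons the share of pathway genes called was 0 to 22.2%, beside 0 to 22.7% of all genes. In Eed null mESC, 2 of 63 were higher, Pmaip1 (59.2 and 59.5 RPKM against 20.1 and 15.6; 1.71 ± 0.28, limma adjusted p = 0.018) and the Bcl-2 family gene Bad (1.14 ± 0.26, adjusted p = 0.0459), and 2 lower, Chek1 (-0.99 ± 0.17, adjusted p = 0.019) and Ei24. None of the 4 calls held when any of the 4 libraries was left out. The Eed null effect in EB minus that in mESC was above 0, by the direct test, for 11 of 64 genes and below 0 for none (17.2%, beside 14.7% of all genes). The highest values were those of Gdf15, Dram1 and Plk3 (2.08 ± 0.49, 2.07 ± 0.33 and 1.95 ± 0.34). Dram1, Plk3 and Pmaip1 lay above wild type at both stages. The other 8 lay below wild type in mESC and above it in EB, without overlap. All 11 were picked by this same test, which favours such a pattern. Eed null and wild-type libraries did not overlap in 64.7% of all genes in mESC and 61.8% in EB. The share of all genes with both sides reversed was not computed. Gdf15, a secreted stress factor, was at 3.38 and 3.85 RPKM in Eed null mESC against 15.8 and 10.5 in wild type, and at 0.504 and 0.664 RPKM in Eed null EB against 0.217 and 0.462, so its larger difference was the one in mESC. The Gdf15 call was lost without Eed null EB replicate 2, wild-type EB replicate 1, Eed null mESC replicate 1 or wild-type mESC replicate 1. Without Eed null mESC replicate 1, 7 pathway genes were called in place of 11.

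Pmaip1 moved the other way in K754R EB. It was at 1.46 and 1.21 RPKM there, 6.91 and 6.98 in K754M EB and 6.95 and 6.60 in wild type, so both K754R libraries were below all other EB libraries. K754R was lower than wild type by -1.99 ± 0.14 (log2, limma adjusted p = 0.00122) and lower than K754M by -2.03 ± 0.14 (adjusted p = 0.00187), and both calls held without each of their 4 libraries. In K754R EB 3 of 63 pathway genes were higher than in wild type and 3 lower, 9.52% beside 9.68% of all genes; after Pmaip1 the largest were Bmf (1.201 ± 0.19, adjusted p = 0.0141) and Rpl11 (-1.10 ± 0.23, adjusted p = 0.0289). The Bmf call was lost without K754R replicate 1 or 2 or wild-type replicate 2, and the Rpl11 call without each of the 4 libraries. The count went from 6 to 1 without either K754R replicate and to 2 without wild-type replicate 2. The pluripotency markers, summing to 16.3 to 20.96 RPKM in K754R EB and 103 to 124 in wild type, were lowest in the same group, and their part was not tested.

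In K754M no pathway gene was called at either stage, and K754R mESC had none. In EloA null CCE mESC, in the fit without replicate pairs, the single call was Gadd45a, a growth arrest gene, at 0.52 ± 0.08 (limma adjusted p = 0.0192). It was lost in 5 of 6 fits that leave out a library (all but the one without wild-type replicate 1). With all libraries kept, the alternatives gave 0 to 12 pathway calls there, beside 296 to 2288 of all genes. In CCE EB, Plk2 was higher in pair B than in pair A (0.83 ± 0.09, adjusted p = 0.0487), a call lost without each of the 4 libraries. No pathway gene was called against wild type in either pair in the main fit. With all libraries kept, the alternatives gave 0 to 6 pathway calls in pair B against wild type, beside 1 to 703 of all genes. Between the pairs they gave 0 to 11, beside 1 to 1462 of all genes. Between the lines 7 genes were higher and 7 lower in CJ7 mESC, 22.2% beside 22.7% of all genes, led by Rpl11 (-1.52 ± 0.14), Chek1 (0.85 ± 0.11) and Cdkn1a (0.83 ± 0.18), the last lost without CJ7 replicate 1, which left 7 calls in place of 14. In EB 3 were higher and none lower, 4.76% beside 6.82% of all genes: Bik (1.66 ± 0.29), Trp53i11 (0.99 ± 0.21) and Pmaip1 (0.66 ± 0.13). These 3 calls were lost without CCE replicate 1 or CJ7 replicate 1, those of Trp53i11 and Pmaip1 also without CCE replicate 2, and that of Pmaip1 also without CJ7 replicate 2.

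The genes most like Trp53 and Mdm2 in their levels over the 14 libraries of a stage were listed as a description, without a test; libraries of a group and of a depth class are not independent points. For Trp53 the closest of 13983 genes in mESC were Mrpl12 (Pearson r = 0.964, Spearman rho = 0.938), Drg2 (r = 0.959) and N4bp3 (r = 0.939), and of 13007 genes in EB Smarcc1 (r = 0.905), Upf1 (r = 0.862) and Scamp4 (r = 0.847). For Mdm2 they were Nup133 (r = 0.938), BC018507 (r = 0.937) and Cd80 (r = 0.935) in mESC and 4933426M11Rik (r = 0.964), Stx3 (r = 0.962) and Gldc (r = 0.957) in EB. Spearman rho for Mdm2, in the same order, was 0.758, 0.793 and 0.943 in mESC and 0.873, 0.96 and 0.952 in EB. With Trp53 it was 0.899 for Drg2, 0.908 for N4bp3, 0.855 for Smarcc1, 0.842 for Upf1 and 0.776 for Scamp4. The sets of the 2 genes and of the 2 stages had no gene in common.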

How the data were processed

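RNA-seq of 28 mouse libraries was read from 2 tables of RPKM that the authors deposited, 1 per stage, with 0 value columns left unused. Reads were processed with CASAVA 1.7 and STAR on mm9, per the submitters' processing notes. Counting tool, annotation and strand setting: not given in the sources used here. RPKM keep no counts, so estimated depths rest on the size of 1 read's step, with GENCODE M21 exon lengths; 39.5 to 45.5% of low values lay within 0.02 of whole reads, and no count test was run.

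Each stage and line was fitted alone with limma 3.58.1 (trend; R 4.3.3) on log2(RPKM + 0.5), for genes of at least 0.25 RPKM in at least 2 libraries, with all groups of the fit sharing 1 estimate of the spread. Fold changes on this scale understate low genes. P-values were adjusted by Benjamini-Hochberg over all genes of a comparison and called under 0.05. Lines were compared in 1 fit per stage, and stages by a difference of differences over the 16 CJ7 libraries, in which a scale shared by a table cancels.

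The 10 genes, pathway lists and markers were chosen with earlier results of these data known. Named are all 10 genes, the 3 pathway genes with the largest change among those called in a comparison (others named were picked after their values were seen), and the 3 genes closest to Trp53 and Mdm2 per stage. Same-numbered CCE mESC replicates deviated together (r = 0.654, 0.327 and 0.371 over 13418 genes, each over 0.1), so the numbers were taken as pairs there, from the data and not from the labels. Alternatives were pseudocounts of 0.1 and 1, no filter, 1 fit per stage, median ratio scaling, the replicate block and leaving out each library. Promoters came from RefSeq, GRCm38.p6; no coordinate of the mm9 files was used.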

Additional observations from a re-analysis of the deposited data

Results flagged for a closer look

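Mdm2 is listed because the effect of losing Eed differed between the stages: the effect in EB minus that in mESC was 0.94 ± 0.16 on the log2 scale (limma adjusted p = 0.00231), with both Eed null libraries below wild type as mESC and both above it as EB. The same test gave 1.03 ± 0.28 for Trp53inp1 (adjusted p = 0.0289), again with both Eed null libraries below wild type in mESC and above it in EB. It gave 0.69 ± 0.21 for Perp (adjusted p = 0.0477), where the mESC groups overlapped. Leaving out libraries ends the calls of Trp53inp1 and Perp as given above, and not that of Mdm2. Pluripotency and mesoderm markers also moved in this test, and their part was not tested.

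Sesn1 is listed because the 2 wild-type lines differed in opposite directions, 0.64 ± 0.13 (log2, CJ7 minus CCE, limma adjusted p = 0.00477) in mESC and -0.86 ± 0.12 (adjusted p = 0.00297) in EB, with every library of one line on the same side of the other at each stage. The difference between those 2 effects was not tested.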

How the results depend on the processing

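No called gene among the 10 changed direction under any alternative. In 1 fit of all libraries of a stage, 4 of the 10 genes were called in Eed null mESC (Bax and Phlda3 higher, Mdm2 and Trp53inp1 lower) in place of 0, 1 in K754M mESC (Perp), 1 in K754R mESC (Phlda3), 1 in K754R EB (Sesn1), 1 in pair B against wild type (Perp), and 0 in EloA null mESC in place of 1. With no filter, 0 were called in EloA null mESC and 0 between K754R and K754M EB, each in place of 1. With the replicate block, 3 were called in EloA null mESC, where the numbers pair the samples. In the other fits it cannot be settled whether same-numbered libraries are pairs, as there are only 2 numbers. Correlations of same-numbered deviations were 0.061 to 0.452 in CJ7 mESC, 0.04 to 0.363 in CJ7 EB and 0.291 to 0.598 in CCE EB. In these fits the block gave 1 call in Eed null mESC (Trp53inp1) in place of 0. It gave 3 in pair B against wild type (Ccng1, Perp and Trp53inp1) and 1 in pair B against pair A (Phlda3), each in place of 0. Between the lines in EB it gave 5 in place of 3 (Ccng1 and Mdm2 added). The Perp difference between stages missed the threshold (limma adjusted p = 0.055), and the block changed no other call. Leaving out 1 library gave 2 to 5 calls in Eed null EB, 1 to 2 for the Eed null difference between stages, 0 to 1 in EloA null mESC, 0 to 0 between K754R and K754M EB, and 0 to 2 for the K754R difference between stages. The causes of these shifts were not tested. Counts over all genes moved further, and the counts of the 10 genes are to be read beside them. The fits of a whole stage tested 21780 genes in mESC and 20039 in EB. In 1 fit per stage, the genes called went from 1805 to 5211 in Eed null mESC, 0 to 955 in K754M mESC, 34 to 1747 in K754R mESC, 2 to 841 between the mutants in mESC, 109 to 434 in K754M EB, 1868 to 2789 in K754R EB, 698 to 1358 between the mutants in EB, 619 to 296 in EloA null mESC, 24 to 591 in pair B against wild type and 78 to 794 between pairs B and A. With no filter those counts were 14 in K754R mESC, 0 between the mutants in mESC, 58 in K754M EB, 425 between the mutants in EB, 1 in pair B against wild type and 32 between the pairs, with 1199 in place of 1868 in K754R EB and 72 in place of 44 for the K754M difference between stages. With the block they were 2575 in Eed null mESC, 2 in K754R mESC, 0 between the mutants in mESC, 230 in K754M EB, 2950 in K754R EB, 1099 between the mutants in EB, 2288 in EloA null mESC, 703 in pair B against wild type, 1462 between the pairs and 2407 in place of 1366 between the lines in EB. A pseudocount of 0.1 gave 1 in K754M mESC and 1 between the pairs, a pseudocount of 1 gave 0 between the mutants in mESC, and median ratio scaling gave 1 between the pairs. Without 1 library, Eed null mESC had 179 to 417. With 2 libraries in most groups, intervals of a log2 difference are wide, such as -0.48 to 1.71 for Trp53 in the K754M difference between stages. The alternatives for the other pathway genes were chosen after seeing the data. They gave 24 to 33 calls in Eed null EB in place of 29, and 2 to 15 in Eed null mESC in place of 4. In EloA null mESC they gave 0 to 12 in place of 1. Pair B against wild type had 0 to 6 in place of 0, and pair B against pair A 0 to 11 in place of 1.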
